A study of Mus musculus with 4 samples.

Results

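The nuclear genes for the subunits of the oxidative phosphorylation system were examined in the ATACseq and H2A.Z peak lists of mouse liver. Members were the GENCODE vM21 protein-coding genes on chromosomes 1 to 19 whose name starts with Nduf, Uqcr, Atp5, Cox4, Cox5, Cox6, Cox7 or Cox8, with Sdha, Sdhb, Sdhc, Sdhd, Cyc1 and Cycs added. This rule used names and no measured value, and it took 93 of 20807 genes. They comprised 34 genes of complex I, 8 complex I assembly factors (the Ndufaf genes), 4 genes of complex II, 9 of complex III, 1 for cytochrome c, 19 of complex IV and 18 of complex V. The symbol Atp5o belongs to 2 gene models, so the 93 genes carry 92 symbols. Its longer model spans 242585 bp, and its start lies within 5 kb of the peaks of the shorter model.

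Oxidative phosphorylation takes place in the inner mitochondrial membrane. Complexes I and II pass electrons to ubiquinone, complex III passes them to cytochrome c, and complex IV passes them to oxygen. The proton gradient that builds up drives ATP synthesis by complex V. Most subunits are encoded in the nucleus, and hepatocytes, with their high demand for ATP in gluconeogenesis and urea synthesis, are rich in mitochondria. Several subunits of complex IV exist as a form used in liver and most other tissues and a form known from muscle, lung or testis.

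ATACseq, which marks accessible DNA by insertion of a transposase, and ChIPseq of the histone variant H2A.Z on chromatin cut with micrococcal nuclease were carried out on WT and Uhrf1hepKO liver, with 1 library per assay and genotype. Whether both assays of a genotype used the same liver is not given in the sources used here, so peaks of both assays at a gene are compared by genotype, not by animal. The livers came from male C57Bl/6 mice 8 to 12 weeks of age, on a normal diet and killed in the morning. WT mice carried floxed Uhrf1 alleles without Cre. Uhrf1hepKO mice carried the same floxed alleles with Cre under the albumin promoter, so that Uhrf1, which keeps up DNA methylation when DNA is replicated, is lost from hepatocytes and retained by the other cells of the liver. With 1 library per condition no difference between livers has a replicate check, no test was made, and genotype and library cannot be told apart. The livers were measured in bulk, so a smaller share of cells with an open site and a weaker opening in every cell cannot be told apart.

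On chromosomes 1 to 19 the lists held 10439 (WT ATACseq), 10636 (Uhrf1hepKO ATACseq), 50665 (WT H2A.Z) and 46400 (Uhrf1hepKO H2A.Z) peaks. Total reads are unknown. From the most frequent fold of each list and its p-value, matched to a Poisson tail, the background was 1.56 and 2.0 reads per base in the WT and Uhrf1hepKO ATACseq lists, a ratio of 1.29, and 3.10 and 3.30 in the H2A.Z lists, a ratio of 1.06. The part of this difference in background in any result below was not tested. Uhrf1 itself had a peak near its transcription start site (TSS) in all 4 lists. Peaks there check nothing about the deletion, as the deleted exons were not located here. Of 8 hepatocyte genes (among them Alb, Apoa1 and Hnf4a), 1, 2, 2 and 0 had a peak within 5 kb of the TSS in the 4 lists in the order given above. In the same order, 0, 0, 1 and 0 of 4 stellate cell genes and 1, 0, 1 and 1 of 4 cholangiocyte genes had one, while none of 3 Kupffer cell and 4 endothelial genes had one in any list. The marker genes thus do not set the tissue apart, and it rests on its label.

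The upstream DNA of 6 members is shown here because these genes carry some of the strongest peaks among members (Uqcr10, Ndufa3, Cycs, Ndufaf8), hold several motif matches under their ATACseq peaks (Cox6a1) or lack peaks (Cox6a2). Each stretch ends 1 base before the TSS, overlaps no annotated exon, and is written 5′ to 3′ on the strand of the gene in GRCm38. For Uqcr10 (chr11:4704343-4704592, minus strand, intergenic), capitals mark the 187 bases under the H2A.Z peak of the WT liver.
Uqcr10: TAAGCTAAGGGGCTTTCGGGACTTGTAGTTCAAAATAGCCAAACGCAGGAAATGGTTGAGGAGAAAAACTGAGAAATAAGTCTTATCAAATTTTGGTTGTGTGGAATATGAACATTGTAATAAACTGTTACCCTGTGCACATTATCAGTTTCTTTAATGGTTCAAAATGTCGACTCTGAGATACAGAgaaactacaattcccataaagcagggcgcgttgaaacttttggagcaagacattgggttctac
For Ndufa3 (chr7:3617123-3617372, plus strand, intergenic), capitals mark the 129 bases under its strongest H2A.Z peak in the Uhrf1hepKO liver.
Ndufa3: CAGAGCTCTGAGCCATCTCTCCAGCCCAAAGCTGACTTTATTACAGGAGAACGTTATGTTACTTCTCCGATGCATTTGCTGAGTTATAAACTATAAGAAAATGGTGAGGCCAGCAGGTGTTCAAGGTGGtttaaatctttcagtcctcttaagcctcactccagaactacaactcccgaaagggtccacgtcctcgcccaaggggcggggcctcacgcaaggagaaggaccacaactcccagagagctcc
For Cycs (chr6:50566539-50566642, minus strand), Cox6a1 (chr5:115348982-115349129, minus strand) and Ndufaf8 (chr11:120098732-120098927, plus strand), capitals mark the searched motifs, here the NRF1 core (GCGCANGCG), the SP1 box (GGGCGG) and the CCAAT box (CCAAT), on either strand. The Cycs and Ndufaf8 stretches lay wholly under ATACseq peaks of both livers.
Cycs: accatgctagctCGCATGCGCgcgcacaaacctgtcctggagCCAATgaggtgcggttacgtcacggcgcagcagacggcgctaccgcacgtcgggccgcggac
Cox6a1: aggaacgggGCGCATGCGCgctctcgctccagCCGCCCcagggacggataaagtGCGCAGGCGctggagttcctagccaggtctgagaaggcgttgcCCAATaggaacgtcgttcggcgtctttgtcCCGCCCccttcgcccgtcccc
Ndufaf8: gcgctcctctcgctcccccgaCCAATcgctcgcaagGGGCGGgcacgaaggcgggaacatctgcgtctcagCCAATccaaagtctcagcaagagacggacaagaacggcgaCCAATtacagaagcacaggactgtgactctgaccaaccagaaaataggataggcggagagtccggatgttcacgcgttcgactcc
For Cox6a2 (chr7:128206388-128206637, minus strand, intergenic), the muscle form of a complex IV subunit, no searched motif and no peak fell in the stretch. It holds 1 CpG in 250 bases, against 15 CpGs in 104 bases for Cycs.
Cox6a2: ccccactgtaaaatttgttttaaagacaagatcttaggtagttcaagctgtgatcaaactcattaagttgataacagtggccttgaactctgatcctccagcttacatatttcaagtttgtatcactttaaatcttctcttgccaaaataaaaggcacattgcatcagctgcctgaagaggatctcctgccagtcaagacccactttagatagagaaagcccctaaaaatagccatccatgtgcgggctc

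Most members carried peaks at their start. Within 5 kb of the TSS, 57 of 93 members (61.3%, Wilson 95% interval 51.1 to 70.6) had an ATACseq peak in WT liver, against 31.4% of all protein-coding genes. In Uhrf1hepKO liver it was 68 members (73.1%, 63.3 to 81.1), against 29.0% of all genes. H2A.Z peaks were found at 82 members (88.2%, 80.1 to 93.3) in WT and 84 members (90.3%, 82.6 to 94.8) in Uhrf1hepKO liver, against 54.4% and 52.6% of all genes. The intervals cover counting error only. From WT to Uhrf1hepKO the number of members with an ATACseq peak thus went up by 11, while the share among all genes went down. A peak in all 4 lists was present at 49 members (52.7%), against 21.9% of all genes. No list held a peak for 5 members (5.38%), against 40.6% of all genes.

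**Figure D1:**
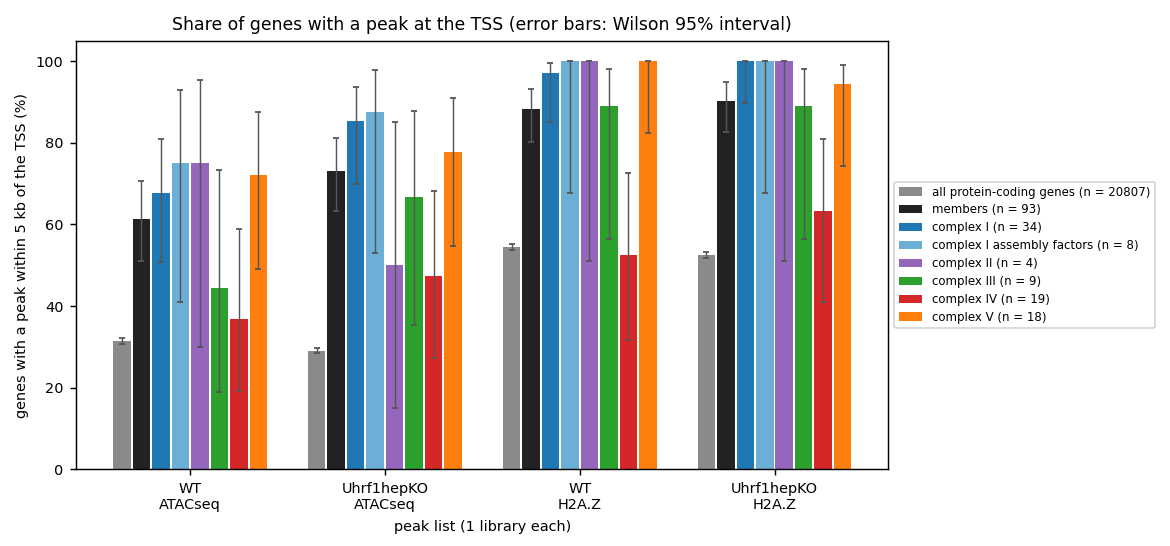
Share of genes (vertical axis, percent) that carry a peak less than 5 kb from the TSS in each of the 4 peak lists, for all protein-coding genes, all members and the members of each complex; bars are shares of genes in 1 library and error bars are Wilson 95% intervals. Complex IV sat lowest among the complexes in both H2A.Z lists, at 52.6% and 63.2%, with 8 isoforms known from other tissues among its genes. Cytochrome c, with 1 gene, is left out.

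Both assays together marked 53 members (57.0%) in WT liver, against 29.0% of all genes, and 65 members (69.9%) in Uhrf1hepKO liver, against 26.2%. ATACseq without H2A.Z was found at 4 members in WT liver (2.43% of all genes), which were Ndufs7, Uqcrc1, Cox7a1 and Cox8a. In Uhrf1hepKO liver these were 3 members (2.88% of all genes), namely Cox8a, Ndufa4l2 and Atp5c1. Cox8a, the form of subunit VIII used in liver, was the member with ATACseq peaks and no H2A.Z peak in both livers. Its ATACseq peaks covered the TSS, with folds over the local background of 3.52 in WT and 3.98 in Uhrf1hepKO. The WT peak was weak, at percentile 8.41 of the folds in its list, and the Uhrf1hepKO peak was at percentile 46.9. Together with that of Atp5a1, this WT fold was the lowest among the strongest WT ATACseq peaks of members.

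Complex I, the NADH dehydrogenase that feeds electrons into the chain, had an ATACseq peak at 23 of 34 genes in WT liver and at 29 in Uhrf1hepKO liver. H2A.Z peaks were present at 33 and 34 genes. The 7 nuclear core subunits, which hold the flavin and the iron-sulphur clusters or bind ubiquinone, had ATACseq peaks at 4 genes in WT and 6 in Uhrf1hepKO liver. Ndufs1 and Ndufv1 had them in Uhrf1hepKO alone, and Ndufs3 in neither. Ndufs7 was the core subunit without an H2A.Z peak in WT liver, and its H2A.Z peak in Uhrf1hepKO had a fold of 5.35, 474 bp downstream of the TSS.

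Among the 27 accessory subunits, which surround the core of complex I, 19 had an ATACseq peak in both livers. In Uhrf1hepKO alone it was present at Ndufa12, Ndufa9, Ndufab1 (the mitochondrial acyl carrier protein) and Ndufs4. Ndufa3, Ndufb8, Ndufb9 and Ndufc2 had none in either liver, although each had H2A.Z peaks in both. The strongest ATACseq peak of any member in WT liver lay at Ndufa5, with a fold of 7.14, rank 417 of 10439 peaks. It sat 340 bp downstream of the TSS in the 5′ UTR, and the peak at the same place in Uhrf1hepKO had a fold of 4.17. Folds are not scaled between libraries, so the folds of the livers are given side by side and not compared. In Uhrf1hepKO the strongest ATACseq peak of complex I was that of Ndufv3, with a fold of 6.93, and in WT the same gene had 6.67. Ndufa3 carried the strongest H2A.Z peak of complex I in both livers, with its summit on the same base 215 bp upstream of the TSS, with folds of 12.2 in WT and 13.2 in Uhrf1hepKO.

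The 8 assembly factors, which help to build complex I and are not part of it, had ATACseq peaks at 6 genes in WT and 7 in Uhrf1hepKO liver, and H2A.Z peaks at all 8 in both. Ndufaf8 had the strongest ATACseq peak of all members in Uhrf1hepKO liver, with a fold of 7.08, rank 365 of 10636, and a fold of 6.68 in WT. The peak sits between Ndufaf8 and Tepsin, whose starts lie 197 bp apart and point away from each other. Ndufaf1 had no ATACseq peak and the second strongest H2A.Z peak among members in WT liver, with a fold of 12.9 and its summit 163 bp upstream. Its H2A.Z fold in Uhrf1hepKO was 11.6. Ndufaf3 had an ATACseq peak in Uhrf1hepKO alone, and that peak lay 2404 bp upstream of its TSS.

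Complex II, the succinate dehydrogenase shared with the citric acid cycle, had H2A.Z peaks at all 4 genes in both livers. Sdha, the flavoprotein, and Sdhb, the iron-sulphur protein, had ATACseq peaks in both livers. Sdha had ATACseq folds of 5.55 in WT and 3.90 in Uhrf1hepKO, and H2A.Z folds of 11.5 and 9.53. Sdhd, a membrane anchor, had an ATACseq peak over its TSS in WT alone (fold 4.11), and Sdhc, the other anchor, had none. Sdhd stood apart in its H2A.Z summits too, which all lay downstream of the TSS, at 145 and 319 bp in WT.

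Complex III, which hands electrons to cytochrome c, had ATACseq peaks at 4 of 9 genes in WT and 6 in Uhrf1hepKO liver, and H2A.Z peaks at 8 genes in both. Uqcrfs1, the Rieske iron-sulphur protein, had the strongest ATACseq peaks of the complex in both livers, with folds of 6.70 and 5.72. Cyc1, cytochrome c1, had an ATACseq peak in Uhrf1hepKO alone (fold 3.59), as had the small subunits Uqcr10 and Uqcr11. Uqcrc1, a core protein of the complex, was the reverse, with an ATACseq peak over its TSS in WT alone (fold 4.68) and no H2A.Z peak in either liver. Its partner Uqcrc2 had peaks in all 4 lists.

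Uqcr10, a small subunit of complex III, carried the peak of highest fold in the whole WT H2A.Z list, 18.3, rank 1 of 50665. The peak runs from 4704406 to 4704605 on chromosome 11 with its summit 151 bp upstream of the TSS, between Uqcr10 and Zmat5, whose starts lie 336 bp apart and face away from each other. In Uhrf1hepKO liver the peak at the same place had a fold of 14.2, rank 102 of 46400. The 250 bases printed above, whose capitals lie under the WT peak, held 5 CpGs. The same stretch held an ATACseq peak in Uhrf1hepKO (fold 4.42) and none in WT.

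Cycs, the somatic cytochrome c, had peaks in all 4 lists. Its ATACseq peaks had folds of 7.01 in WT, rank 461, and 6.84 in Uhrf1hepKO, rank 442, and both covered the TSS. Its strongest H2A.Z peaks, with folds of 9.02 and 11.6, had summits 733 and 757 bp upstream, in an intron of the gene 5430402O13Rik.

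Complex IV, the cytochrome c oxidase, had a lower share of genes with peaks than the other complexes with more than 4 genes. ATACseq peaks were present at 7 of 19 genes in WT (36.8%, Wilson 95% interval 19.1 to 59.0) and 9 in Uhrf1hepKO liver (47.4%, 27.3 to 68.3). H2A.Z peaks were present at 10 (52.6%) and 12 genes (63.2%). The 19 genes include 8 isoforms known from other tissues, of which 1 and 1 had an ATACseq peak and 1 and 3 an H2A.Z peak. Of the other 11 genes, 6 and 8 had an ATACseq peak and 9 and 9 an H2A.Z peak. The low share of the complex is thus in large part that of these isoforms. All 5 members without a peak in any list belong to complex IV: Cox4i1, Cox4i2, Cox6a2, Cox6b2 and Cox8c. Among its other 14 genes, Cox5b, Cox6a1, Cox7c and Ndufa4 had peaks in all 4 lists. Cox5b had the strongest ATACseq peaks of the complex, with folds of 6.57 in WT and 5.29 in Uhrf1hepKO.

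The isoforms of complex IV had few peaks, and 4 of the 5 members without any peak were among them. Of 8 isoforms known from muscle (Cox6a2, Cox7a1, Cox8b), lung (Cox4i2), testis (Cox6b2, Cox7b2, Cox8c) or hypoxic cells (Ndufa4l2), 1, 1, 1 and 3 had a peak in the WT ATACseq, Uhrf1hepKO ATACseq, WT H2A.Z and Uhrf1hepKO H2A.Z lists. Of their 6 partners used in liver, 4, 3, 4 and 4 had one. The 8 isoforms had 43 CpGs, the median of all genes, or fewer within 500 bp of the TSS. Of all genes with so few, 13.6%, 13.1%, 32.3% and 30.8% had a peak in the 4 lists. The 6 partners had more than 43 CpGs, and of all such genes 49.7%, 45.4%, 77.1% and 74.9% had one. Whether isoforms or partners differ from genes of like CpG count was not tested. Most of the isoform peaks lay away from the TSS. The H2A.Z peaks of Cox8b had their summits 2276 and 2865 bp upstream in WT, that of Cox7b2 in Uhrf1hepKO 1425 bp upstream with a fold of 3.58, and the ATACseq peak of Ndufa4l2 in Uhrf1hepKO 1965 bp upstream. Cox7a1 had a weak ATACseq peak over its TSS in WT alone, with a fold of 3.68, and a weak H2A.Z peak in Uhrf1hepKO alone, with a fold of 3.95. Neither Cox7a1 peak overlapped a peak of the other liver.

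Cox4i1, the general form of the subunit that Cox4i2 replaces in lung, did not follow its liver partners. It had no peak in any list, and the nearest ATACseq peaks were 67996 bp away in WT and 67981 bp away in Uhrf1hepKO, downstream. The nearest H2A.Z peaks were 33196 and 33208 bp away, upstream. Its start held 131 CpGs within 500 bp, the highest count of all members. Of the 254 protein-coding genes with at least 131 CpGs there, 36.2% and 28.0% had an ATACseq peak and 72.4% and 68.5% an H2A.Z peak in WT and Uhrf1hepKO. For the other 4 members without peaks, the nearest peaks of the lists were between 11764 bp (Cox6b2) and 30963 bp (Cox6a2) from the TSS.

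Complex V, the ATP synthase, had ATACseq peaks at 13 of 18 genes in WT and 14 in Uhrf1hepKO liver, and H2A.Z peaks at 18 and 17. The genes for the ring of c subunits, Atp5g1, Atp5g2 and Atp5g3, which encode the same mature protein, had peaks in all 4 lists. Atp5g2 had the strongest ATACseq peak of the complex in WT liver (fold 7.05) and Atp5g1 in Uhrf1hepKO (fold 6.14). The Atp5g2 peak lay 1255 bp downstream of its TSS in a 5′ UTR. Atp5g2 also had the most H2A.Z peaks of any member in WT liver, with 6 in the window, followed by 5 each at Ndufa10, Atp5mpl and Atp5j. In Uhrf1hepKO liver these 4 genes, chosen for their WT counts, had 3, 1, 2 and 4. There the most were at Ndufs6, with 6, and Ndufb7, with 5, and each of these had 4 in WT. The widest Atp5g2 peak in Uhrf1hepKO ran over 1697 bp.

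The 5 genes of the catalytic head differed among themselves. Atp5b, the catalytic beta subunit, and Atp5e had peaks in all 4 lists. Atp5a1, the alpha subunit, had an ATACseq peak in WT alone (fold 3.52). Atp5c1, the central shaft, had ATACseq peaks in both livers (folds 4.18 and 3.61) and was the member with H2A.Z in WT alone (fold 5.36). Atp5d had no ATACseq peak, and its H2A.Z peaks lay 2573 to 3445 bp downstream of its TSS, nearest to the start of Cbarp. Among the smaller subunits, Atp5j2 and Atp5l had H2A.Z peaks in both livers and no ATACseq peak, and Atp5k, like the stalk gene Atp5j, had an ATACseq peak in Uhrf1hepKO alone. The Atp5j peak sits in the 5′ UTR of Gabpa, the gene of a regulator of respiratory genes, and is shared by both.

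**Figure D2:**
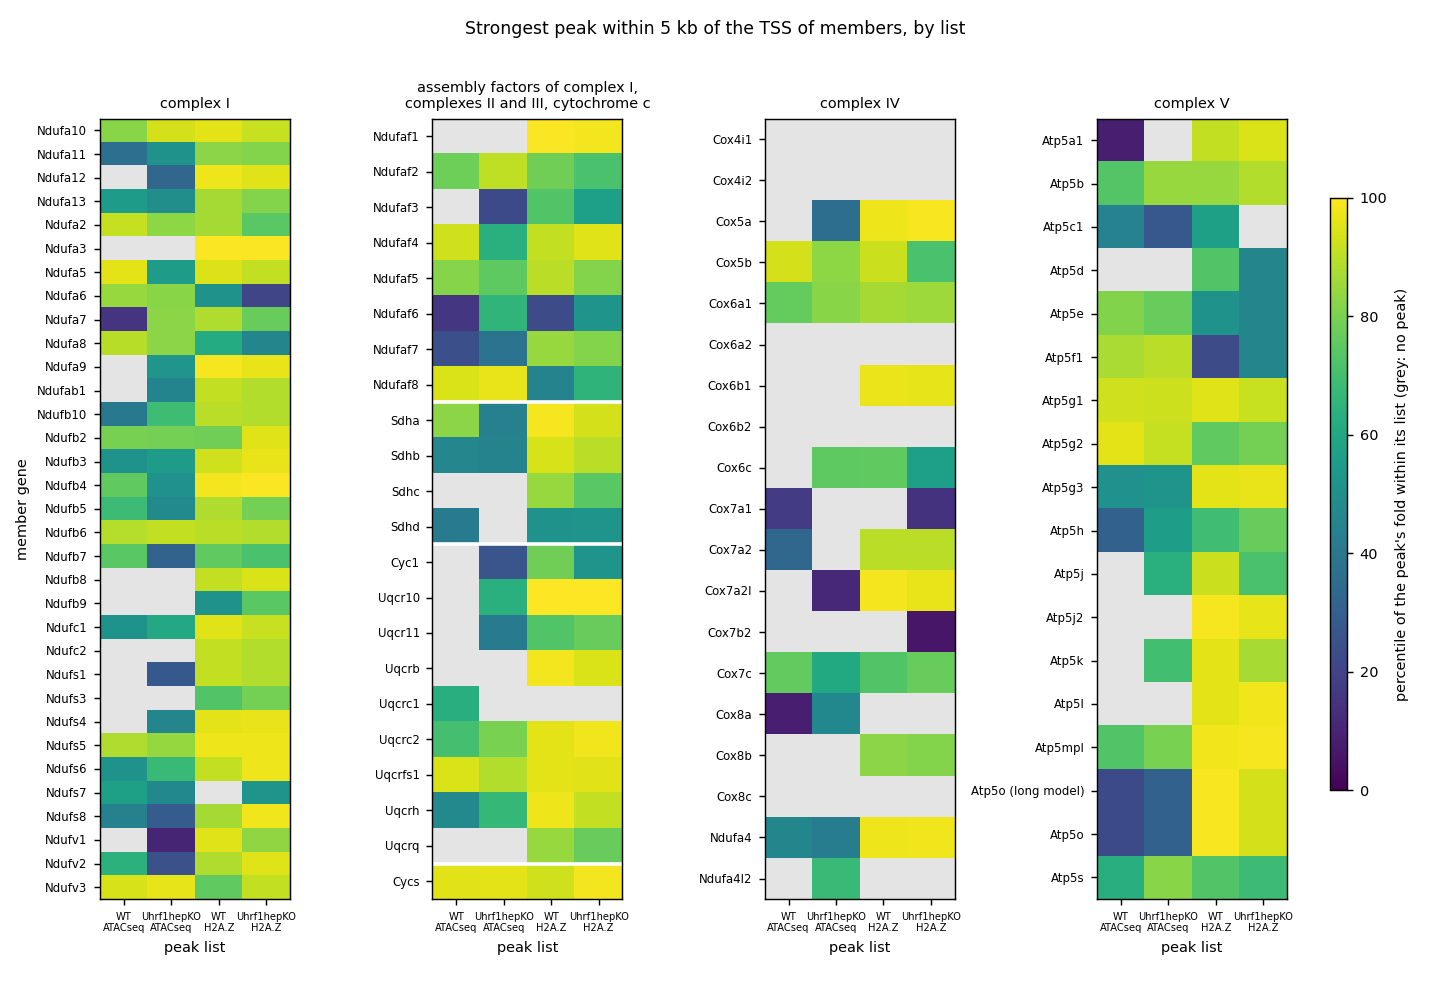
Strongest peak within 5 kb of the TSS of the members shown (rows, grouped by complex) in each of the 4 lists (columns); colour is the percentile of the peak's fold within its own list, and grey marks no peak. Grey fills the rows of Cox4i1, Cox4i2, Cox6a2, Cox6b2 and Cox8c, and percentiles are read within a column, since the lists differ in length; the member medians were 68.4, 63.4, 90.1 and 88.3 from left to right, against 61.8, 63.7, 82.8 and 81.4 for all genes with a peak.

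Between the livers, the ATACseq peaks of members differed more often in the direction of Uhrf1hepKO. An ATACseq peak was present in both livers at 52 members (55.9%, against 24.0% of all genes) and in neither at 20 (21.5%, against 63.5%). Counting only peaks no weaker than their list's median fold, 31 members had one in both and 42 in neither, and all genes were not counted in this way. It was present in WT alone at 5 members (7.44% of all genes) and in Uhrf1hepKO alone at 16 members (5.07% of all genes). Of the 21 members called in a single liver, 76.2% (Wilson 95% interval 54.9 to 89.4) were called in Uhrf1hepKO, against 40.5% of the 2603 such genes among all protein-coding genes. The 16 comprised 6 of complex I (Ndufa12, Ndufa9, Ndufab1, Ndufs1, Ndufs4, Ndufv1), 1 assembly factor (Ndufaf3), 3 of complex III (Cyc1, Uqcr10, Uqcr11), 4 of complex IV (Cox5a, Cox6c, Cox7a2l, Ndufa4l2) and 2 of complex V (Atp5j, Atp5k). The 5 in WT alone were Sdhd, Uqcrc1, Cox7a1, Cox7a2 and Atp5a1.

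These single-liver peaks were weak within their lists. The strongest peak of the 16 members had a median percentile of 43.3 (range 10.2 to 75) among the Uhrf1hepKO ATACseq peaks, and the 5 members had a median of 33.7 (8.41 to 62.5) among the WT peaks. The 52 members called in both livers had a median of 67.4 over the mean of their 2 percentiles. Among all genes the medians were 36.4, 35.3 and 67.2, so the members lay near them. In the single-liver group, peaks covered the TSS at 9 of the 16 members (56.2%, against 42.2% of all genes with ATACseq in Uhrf1hepKO alone), and 15 of the 16 had H2A.Z in both genotypes (93.8%, against 75.4%). Ndufa4l2 was the exception, with no H2A.Z peak. The background of the Uhrf1hepKO ATACseq list was 1.29 times that of the WT list, and its part in the count of 16 was not tested.

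For H2A.Z, 81 members had a peak in both genotypes (87.1%, against 50.4% of all genes) and 8 in neither (8.60%, against 43.4%). The 8 became 14 in a 1 kb window, 15 in a 500 bp window and 14 when each peak went to its nearest TSS. All genes were not counted under these settings. In WT alone there was 1 member, Atp5c1 (3.99% of all genes), and in Uhrf1hepKO alone there were 3 members, Ndufs7, Cox7a1 and Cox7b2 (2.17% of all genes). The members without H2A.Z in both livers were Uqcrc1, Ndufa4l2 and 6 Cox genes (Cox4i1, Cox4i2, Cox6a2, Cox6b2, Cox8a and Cox8c).

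Peaks at members were shared between livers at the level of position too. Of the 59 WT ATACseq peaks in member windows, 52 (88.1%, Wilson 95% interval 77.5 to 94.1) overlapped a Uhrf1hepKO ATACseq peak by at least 1 bp, against 61.3% of all WT ATACseq peaks. In the reverse direction it was 52 of 70 (74.3%, 63.0 to 83.1), against 60.2%. For H2A.Z, 162 of 202 WT peaks (80.2%, 74.2 to 85.1) and 162 of 181 Uhrf1hepKO peaks (89.5%, 84.2 to 93.2) overlapped, against 70.0% and 75.7% of all peaks. Within a genotype, 29 of the 59 WT ATACseq peaks (49.2%) and 33 of the 70 Uhrf1hepKO ATACseq peaks (47.1%) overlapped an H2A.Z peak, against 35.7% and 27.4% of all ATACseq peaks. All these reference shares include peaks far from any TSS, so they are not a like comparison. By gene, 52 of 57 members with ATACseq in WT had it in Uhrf1hepKO too, a higher share than the 4989 of 6537 genes. In reverse it was 52 of 68 members, a lower share than the 4989 of 6044 genes. For H2A.Z it was 81 of 82 members from WT to Uhrf1hepKO, against 10489 of 11319 genes. In reverse it was 81 of 84 members, near the share of all genes (10489 of 10941). Members were thus not shared more often than all genes in both directions.

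The other genes of the pathway gave a different split. A list of 47 autosomal genes held assembly factors of complexes I to V without a member name, mitochondrial transcription factors and nuclear regulators. Of these, 33 and 26 had an ATACseq peak in WT and Uhrf1hepKO liver (70.2% and 55.3%, against 31.4% and 29.0% of all genes). An H2A.Z peak was present at 45 and 43 (95.7% and 91.5%, against 54.4% and 52.6%). In WT alone, ATACseq peaks were present at 9 genes (19.1%, against 7.44% of all genes): Cox15, Cox20, Nrf1, Nubpl, Polrmt, Sco1, Sdhaf2, Sdhaf4 and Timmdc1. In Uhrf1hepKO alone they were present at 2 (4.26%, near the 5.07% of all genes), Cox16 and Gabpa, and the peak of Gabpa is the same as that of Atp5j. Nrf1, the gene of a regulator of respiratory genes, had a fold of 3.89 in WT ATACseq. Ppargc1a, the gene of the coactivator PGC-1 alpha, had no peak in any list. The difference between the subunits and these genes was not tested.

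ATACseq and H2A.Z occupied different places around the TSS of members. ATACseq peaks covered the TSS at 46 of 57 members in WT (80.7%, against 60.1% of all genes with such a peak) and at 53 of 68 in Uhrf1hepKO (77.9%, against 58.1%). Of the ATACseq peak centres in the windows, 63.3% and 57.7% lay within 100 bp of the TSS, against 40.9% and 40.7% for all genes. H2A.Z peaks covered the TSS at 5 of 82 members in WT (6.1%, against 9.01% of all genes with H2A.Z) and 7 of 84 in Uhrf1hepKO (8.33%, against 8.67%). Of the H2A.Z summits, 2.96% and 3.30% lay within 100 bp of it, against 4.31% and 4.19% for all genes, so the members lay near the level of all genes. Measured from the TSS of any transcript of a member, the shares were 15.4% and 12.3%, and all genes were not measured in this way.

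H2A.Z summits stood on its flanks. Summits on both sides within 1 kb were found at 48 members in WT (58.5%, against 43.6% of all genes with H2A.Z) and 40 in Uhrf1hepKO (47.6%, against 41.3%). The flanking summits nearest the TSS were a median of 494 bp apart in WT and 490 bp in Uhrf1hepKO, against 530 and 536.5 bp for all genes. Where such a member also had an ATACseq centre within 1 kb, the centre lay between the summits at 26 of 30 members in WT (86.7%, against 84.7% of all genes) and 23 of 31 in Uhrf1hepKO (74.2%, against 84.8%). Summits within 1 kb upstream numbered 90 in WT and 86 in Uhrf1hepKO, and those downstream 74 and 61. All genes had more upstream too, with 10165 and 9559 upstream and 8997 and 8104 downstream.

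**Figure D3:**
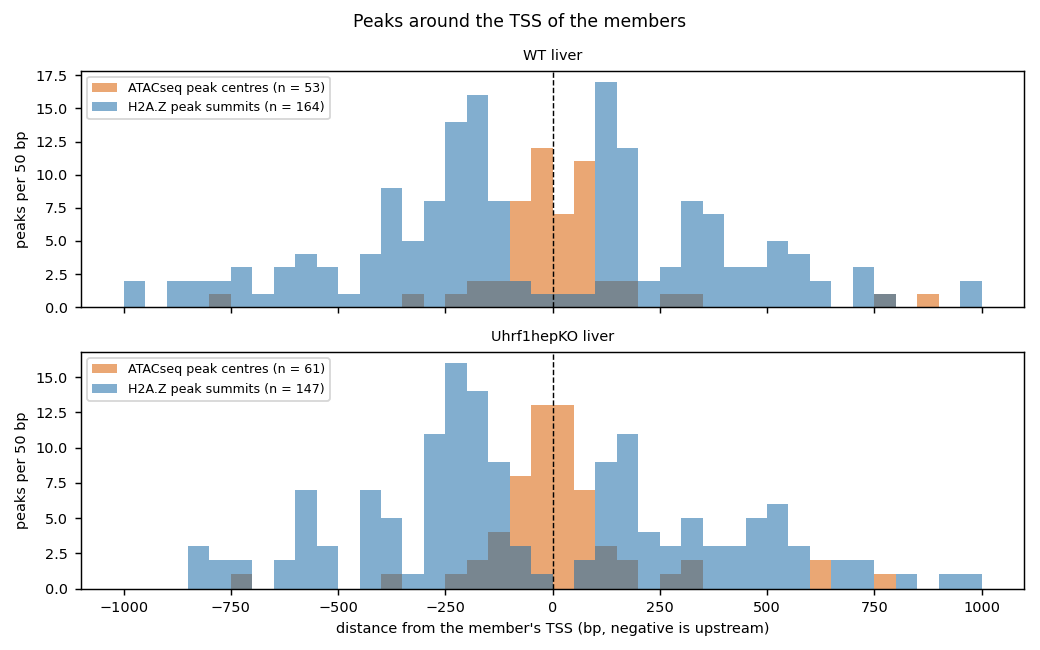
Number of ATACseq peak centres (orange) and H2A.Z peak summits (blue) per 50 bp within 1 kb of the TSS of the members (horizontal axis, bp, negative is upstream), in the WT liver above and the Uhrf1hepKO liver below. ATACseq centres (53 and 61) pile up at the TSS and H2A.Z summits (164 and 147) on either side of it, with few within 100 bp.

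A number of the members share their start region with a neighbour. The start of a protein-coding gene on the other strand, facing away, lay within 1 kb upstream at 22 of 93 members, against 6.97% of all genes. Of these 22 members, 17 (77.3%) had an ATACseq peak in WT and 17 in Uhrf1hepKO, against 68.8% and 64.6% of all genes so arranged. H2A.Z was present at 21 (95.5%) and 20 (90.9%) of them, against 90.8% and 88.3%. At the other 71 members it was 40 and 51 for ATACseq (56.3% and 71.8%, against 28.6% and 26.4% of the other genes) and 61 and 64 for H2A.Z (85.9% and 90.1%, against 51.7% and 49.9%). The starts of Ndufa7 and Rps28, a ribosomal protein gene, are 10 bp apart, those of Ndufb9 and Tatdn1 18 bp and those of Sdha and Ccdc127 29 bp. Peaks there cannot be given to 1 gene of the pair. Of the member peaks, 12 of 59 and 12 of 70 ATACseq peaks and 43 of 202 and 41 of 181 H2A.Z peaks were nearer to the TSS of a gene other than the member. With each peak given to the gene of nearest TSS alone, 47 and 57 members had an ATACseq peak and 75 and 78 an H2A.Z peak in WT and Uhrf1hepKO. Neither nearest-TSS count was made for all genes, so how far the member shares exceed those of all genes under this rule is unknown.

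Peaks within the gene and outside the TSS window were few. They were present at 1 and 2 members for ATACseq (8.94% and 9.36% of all genes) and at 4 members in each H2A.Z list (19.3% and 18.3% of all genes). Ndufa8 had an ATACseq peak in Uhrf1hepKO, 9808 bp downstream in an intron with a fold of 3.58. Atp5s had an intronic H2A.Z peak in both livers, with folds of 8.77 and 9.99 and summits 9084 and 9076 bp downstream. Ndufaf6 had weaker ones, with folds of 4.39 and 5.11. The peaks in the body of Ndufaf2 lay nearest to the start of Smim15, and those in the long Atp5o model lay mostly nearest to the starts of Cryzl1, Donson and Itsn1. Without the long model, 0 and 1 members had an ATACseq body peak and 3 in each list an H2A.Z body peak. Ndufs4 and Cox7b2, which span 100464 and 105382 bp, had none.

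The starts of members were rich in CpGs, which the rule did not use. Within 500 bp of the TSS, the median CpG count was 56 for members and 43 for all genes, and 72 members (77.4%) lay above 43. Complex IV had a median of 43, and its 8 isoforms of other tissues had a median of 21.5, with none above 43. Among genes with more than 43 CpGs, ATACseq peaks were present at 69.4% of members and 49.7% of all genes in WT, and at 80.6% and 45.4% in Uhrf1hepKO. H2A.Z peaks were present there at 94.4% of members in both livers, against 77.1% and 74.9% of all genes. Among genes with 43 CpGs or fewer, the 21 members had ATACseq peaks at 33.3% and 47.6%, against 13.6% and 13.1% of all genes. ATACseq in Uhrf1hepKO alone was found at 12 of the 72 CpG-rich members (16.7%, against 6.56% of all CpG-rich genes). It was found at 4 of the other 21 members, against 3.62% of all genes with 43 CpGs or fewer. The share of members thus lay above that of all genes on both sides of the split.

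**Figure D4:**
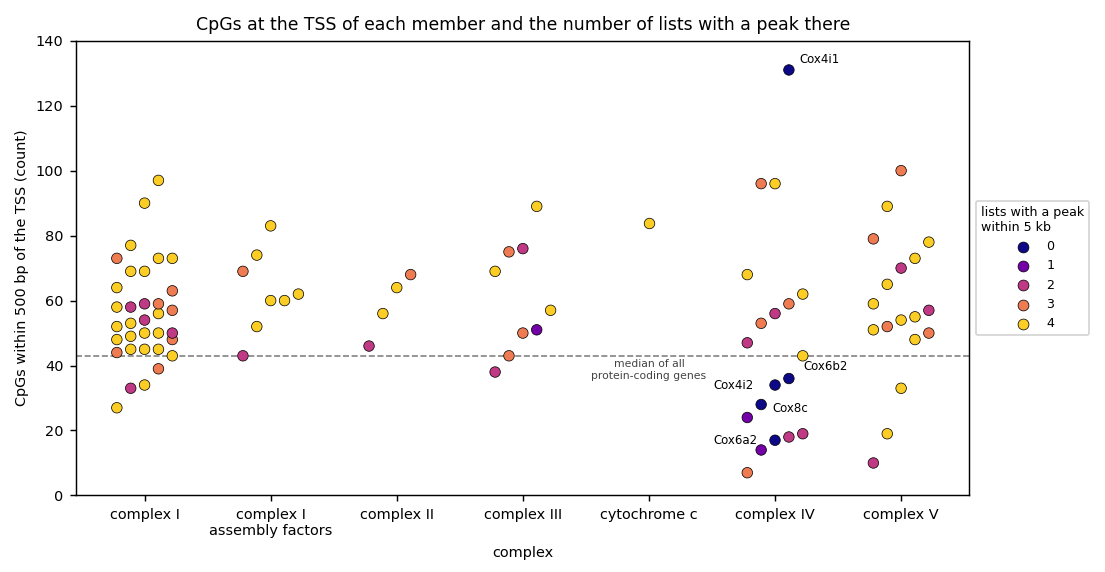
CpGs within 500 bp of the TSS (vertical axis, count) of each member (points) by complex, coloured by the number of the 4 lists with a peak within 5 kb; the dashed line is the median of all protein-coding genes, 43. Gene names mark the 5 members without a peak, of which 4 lie below the line and Cox4i1 lies highest, at 131.

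Short motifs of regulators of respiratory genes were searched from 250 bp before to 50 bp after each TSS, on both strands. NRF1, GABP (an ETS factor), YY1 and ERR alpha are known as regulators of this pathway. The NRF1 core GCGCANGCG was present at 18 members (19.4%), against 8.17% of all promoters of this length. Among genes with more than 43 CpGs the shares were 22.2% and 15.1%. The ETS core CCGGAAG was present at 17 members (18.3%, against 11%), and among CpG-rich genes at 19.4% of members and 17.9% of all. Over all members, the YY1 core ATGGCGGC was present at 5 (5.38%, against 2.60%) and the ERR element TCAAGGTCA at 2, Sdhd and Atp5g3 (2.15%, against 0.49%). The SP1 box was present at 44.1% of members and 43.7% of all promoters, but among CpG-rich genes at 48.6% of members and 71.6% of all. The CCAAT box was present at 39.8% of members and 38.6% of all promoters. A match gives the letters in the window and not a bound site.

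Of the 18 members with an NRF1 core, 17 had an ATACseq peak in at least 1 liver, and at 16 (88.9%) a core lay wholly under such a peak. Among all 1699 genes with a core, 71.8% had such an ATACseq peak and 61.9% had a core under it. Where a peak was present, a core lay under it at 16 of 17 members and at 1052 of 1220 genes. Part of the contrast is thus that members more often had a peak at all. In Cycs the core CGCATGCGC lay 92 bp upstream of the TSS and under the ATACseq peaks of both livers. Cox6a1 held 3 matches, of which GCGCATGCG and CGCATGCGC overlap on opposite strands, 139 and 138 bp upstream, and GCGCAGGCG lies 94 bp upstream. Sdha likewise held 3. Atp5l was the member with an NRF1 core and no ATACseq peak, and at Atp5h, the other exception, the ATACseq peaks ended before the core. The ETS core lay under an ATACseq peak at 10 of 17 members (58.8%, against 45.5% of genes with it).

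The YY1 core split by liver. At all 5 members with it (Cyc1, Ndufa2, Ndufa7, Ndufa9 and Ndufaf8) it lay under an ATACseq peak of the Uhrf1hepKO liver, and at none under a WT peak. Among all 542 genes with the core it was under a WT peak at 26.9% and under a Uhrf1hepKO peak at 26.8%. Cyc1 and Ndufa9 had no WT ATACseq peak. Ndufa2 and Ndufaf8 had WT peaks near the TSS that did not reach it, and at Ndufaf8 the WT peak ended 1 base before it. Ndufa7 had no WT peak near its core, which lies 98 bp upstream of the TSS. Its only WT peak in the window was centred 4602 bp downstream. This is a count over 5 genes in 1 library per liver, and it was noticed after the values were seen. With 250 bp on either side of the TSS, 13 members held the core, and the split was not examined for them.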

How the data were processed

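The authors used BWA-MEM to align reads to GRCm38.p4 and Picard for cleaning and sorting, and ran MACS2 on each library by itself. For ATACseq the methods name broad mode, the MACS2 setting for read pairs and a p of 0.05, although they give single-end sequencing, and which of these applies to the deposited list is not settled here. FastQC 0.11.5 and Trimmomatic are named in the submitters' processing notes. The H2A.Z calling mode, any control, the MACS2 version and any shift of ATACseq reads are not given in the sources used here. The fold in the deposited lists is a ratio, read pileup plus 1 over local background plus 1, averaged over ATACseq regions and taken at H2A.Z summits. Deposited −log10 p-values served to estimate the background, deposited −log10 q-values set the stricter alternative, and the deposited summit offset, in bp, gave H2A.Z positions. The q-values reached 0.0997 (WT) and 0.0993 (Uhrf1hepKO) in the ATACseq lists, and 0.0500 and 0.0489 in the H2A.Z lists. The assays thus ended at different limits, near a q of 0.1 and of 0.05.

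Peaks were joined to GENCODE vM21 genes in pandas 2.3.3 and numpy 2.4.6 under Python 3.11.15. Intervals came from scipy 1.17.1 and plots from matplotlib 3.10.9. A peak counted for a gene when it overlapped the 5 kb on either side of the TSS by at least 1 bp, or the rest of the gene body. CpGs were counted within 500 bp of the TSS. Scripts were tested on simulated data. Shares carry Wilson 95% intervals. With 1 library per group no test was made, and total depth is unknown, so precision is limited to these intervals. Printed sequences were read from the GRCm38 genome; 77 RefSeq promoters of members, for 72 symbols, were identical to it.

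Members and lists were chosen with earlier results of these data known, and the split at 43 CpGs was chosen after the values were seen. Named members were, by rule, those with the highest fold in each complex and list, without any peak, with ATACseq in 1 liver alone, with ATACseq and no H2A.Z in a liver, with ATACseq in the body, the isoforms and partners, and the 3 members with most H2A.Z peaks in WT, with ties. A member of complex I is counted but not reported singly here. Others illustrate roles or motifs and were chosen after their values were seen.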

Additional observations from a re-analysis of the deposited data

How the results depend on the processing

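Of 140 summary values recomputed under the alternatives, 112 stayed within 1.5 times their value (for shares, within their interval) and 28 moved; of 558 values of single members, 451 stayed and 107 moved. The cause was not tested. Apart from the motif search, the alternatives were run on members alone, so no share of all genes stands beside these counts. Members without H2A.Z in both livers numbered 14 in a 1 kb window, 15 in a 500 bp window and 14 when peaks went to the nearest TSS. Keeping peaks no weaker than their list's median fold, 44 members had ATACseq in Uhrf1hepKO, 31 in both livers and 42 in neither, 5 had H2A.Z in WT alone, 34 (WT) and 39 (Uhrf1hepKO) had both assays, and 0 and 1 had an ATACseq body peak. With q at most 0.01, 33 members had ATACseq in neither liver and 1 an ATACseq body peak in Uhrf1hepKO. With the nearest TSS, 31 had ATACseq in neither liver. With a 1 kb window, body peaks were found at 4, 5, 9 and 8 members (ATACseq WT and Uhrf1hepKO, H2A.Z WT and Uhrf1hepKO). Without the long Atp5o model, an alternative added after seeing the data, ATACseq body peaks were found at 0 and 1. When at least 50% of both peaks had to overlap, 74.6%, 62.9%, 60.4% and 67.4% of peaks were shared between livers. Against the TSS of any transcript, 15.4% and 12.3% of H2A.Z summits lay within 100 bp. Within 250 bp on either side of the TSS, 13 members held the YY1 core (14.0%, against 5.26% of all genes) and 4 the ERR element (4.3%, against 0.759%). ATACseq in Uhrf1hepKO alone outnumbered WT alone under each alternative run, at the closest by 13 to 7 (peaks no weaker than the median fold). No paired analysis was possible because each condition has 1 library per assay and no test was made.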

Other observations

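The rule took chromosomes 1 to 19, so the subunit genes on chromosome X were left out of the counts. Ndufb11, an accessory subunit of complex I, carried H2A.Z in its TSS window in both livers, with folds of 7.56 in WT and 6.74 in Uhrf1hepKO, and no ATACseq peak. Ndufa1, another accessory subunit of complex I, had an H2A.Z peak in Uhrf1hepKO alone, with a fold of 5.58. Cox7b, a subunit of complex IV, had ATACseq peaks with folds of 4.28 and 3.69. It had 5 H2A.Z peaks in WT, the strongest with a fold of 8.04, and 2 in Uhrf1hepKO, the strongest with a fold of 8.60.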
